A study of Mus musculus with 75 samples.

Results

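Genes of 7 solute carrier (SLC) families that carry amino acids and related compounds across membranes were described in gastrocnemius, a mixed, mostly fast-fibred calf muscle, of BALB/c mice. Members were all genes of the deposited table whose symbol begins with Slc1a, Slc3a, Slc6a, Slc7a, Slc36a, Slc38a or Slc43a followed by a digit, which gave 38 of 13856 genes. There were 4 members of SLC1, 1 of SLC3, 10 of SLC6, 8 of SLC7, 3 of SLC36, 9 of SLC38 and 3 of SLC43. Slc7a6os matched by name alone: it is a coding gene that lies beside Slc7a6 on the opposite strand and is no carrier, which leaves 37 transporters. The GENCODE vM21 annotation holds 64 protein-coding genes of these families, and those without a row in the table, among them Slc7a11, Slc38a5, Slc1a2, Slc3a1 and Slc6a20a, were not analysed here.

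Male and female mice had received bilateral injections of either C26 cells, which form wasting tumours and come from a single mouse colon carcinoma line, or phosphate-buffered saline (PBS). The C26 arms were given saline, 5-fluorouracil, paclitaxel or cisplatin from day 12, dosed at 75% of the maximum tolerated dose over 2 cycles with 2 injections per week, PBS mice were given saline, and muscle was collected at day 25. Libraries numbered 7, 7, 8, 7 and 6 in females and 8, 8, 8, 6 and 8 in males, in the order PBS, C26 saline, 5-fluorouracil, paclitaxel, cisplatin. Every drug group carried tumours, so an action of a drug on muscle and one by way of the tumour cannot be told apart. The mice's age is not given in the sources used here, and nothing in the labels says how the samples of a group were separated, so a p value here speaks only of the spread among the libraries at hand, which may be technical. The muscle identity of the libraries was plain: all 12 myofibre markers were measured, and their summed level lay between 16.76 and 18.28 (log2) over all libraries.

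Amino acid carriers differ in what drives them. The heavy chain 4F2hc, encoded by Slc3a2, pairs with light chains of SLC7 to form exchangers that swap an amino acid for another. Of SLC43, the carriers encoded by Slc43a1 and Slc43a2 move neutral amino acids by facilitated diffusion, while Slc43a3 is not known as an amino acid carrier. SLC1, SLC6 and SLC38 carriers take up their substrates with sodium, and SLC36 carriers with protons. In muscle such carriers bring in leucine and glutamine and release glutamine and alanine, and some, such as SLC38A9 on the lysosome, take part in signalling amino acid supply to the kinase complex mTORC1.

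Values below are deposited log2 values per library, and a difference is the mean of the first-named group minus that of the second on the log2 scale, and ± gives limma's standard error of it. In whole muscle a change in the number of cells of a type and in RNA per cell cannot be told apart. A gene passed the test where limma's Benjamini-Hochberg adjusted p over all 13856 genes was under 0.05. Estimated counts recovered from the table summed to 11.4 to 40.5 M per library (median 22.5 M). The slope of a library's deviations on transcript GC content (GC slope, in log2 units per SD of GC) varied within groups. It was above 0.1 in 19 of the 73 libraries, among them 4 of 6 male paclitaxel and 4 of 8 male 5-fluorouracil libraries and 0 of 8 male C26 saline libraries. The median share of expression in mitochondrially encoded genes was 2.58% for these 19 and 10.46% for the rest.

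In muscle of PBS mice the most abundant members per length of transcript, in both sexes, were Slc6a8, the creatine carrier, and Slc38a2 and Slc38a3, which take up glutamine and other neutral amino acids (SNAT2 and SNAT3). The taurine carrier Slc6a6 ranked 4 in females and 6 in males, Slc43a3 ranked 6 and 4, and Slc38a4 ranked 9 and 5. Levels between genes are log2 values per kilobase of the longest coding transcript, as mean and SD. Slc6a8 lay at 5.10 ± 0.27 in 7 females and 5.22 ± 0.21 in 8 males. Slc38a3 lay at 5.44 ± 0.50 in females and 4.64 ± 0.44 in males, and Slc38a2 at 4.48 ± 0.20 and 4.99 ± 0.16. In each sex the spans of mean ± SD of the first-ranked and the second-ranked gene overlapped. The heavy chain Slc3a2 ranked 7 in females and 8 in males, at 3.51 ± 0.16 and 3.29 ± 0.16. Among its light chains the highest was Slc7a8 (LAT2), at 2.34 ± 0.79 in females and 2.33 ± 0.39 in males, while Slc7a5 (LAT1), which imports large neutral amino acids such as leucine, lay at 0.12 ± 0.41 and -0.23 ± 0.19. Several members are too low for firm statements on level: Slc6a12, Slc6a7, Slc6a13 and Slc6a2 had a median of 5, 6, 7 and 9 estimated reads per library.

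**Figure D1:**
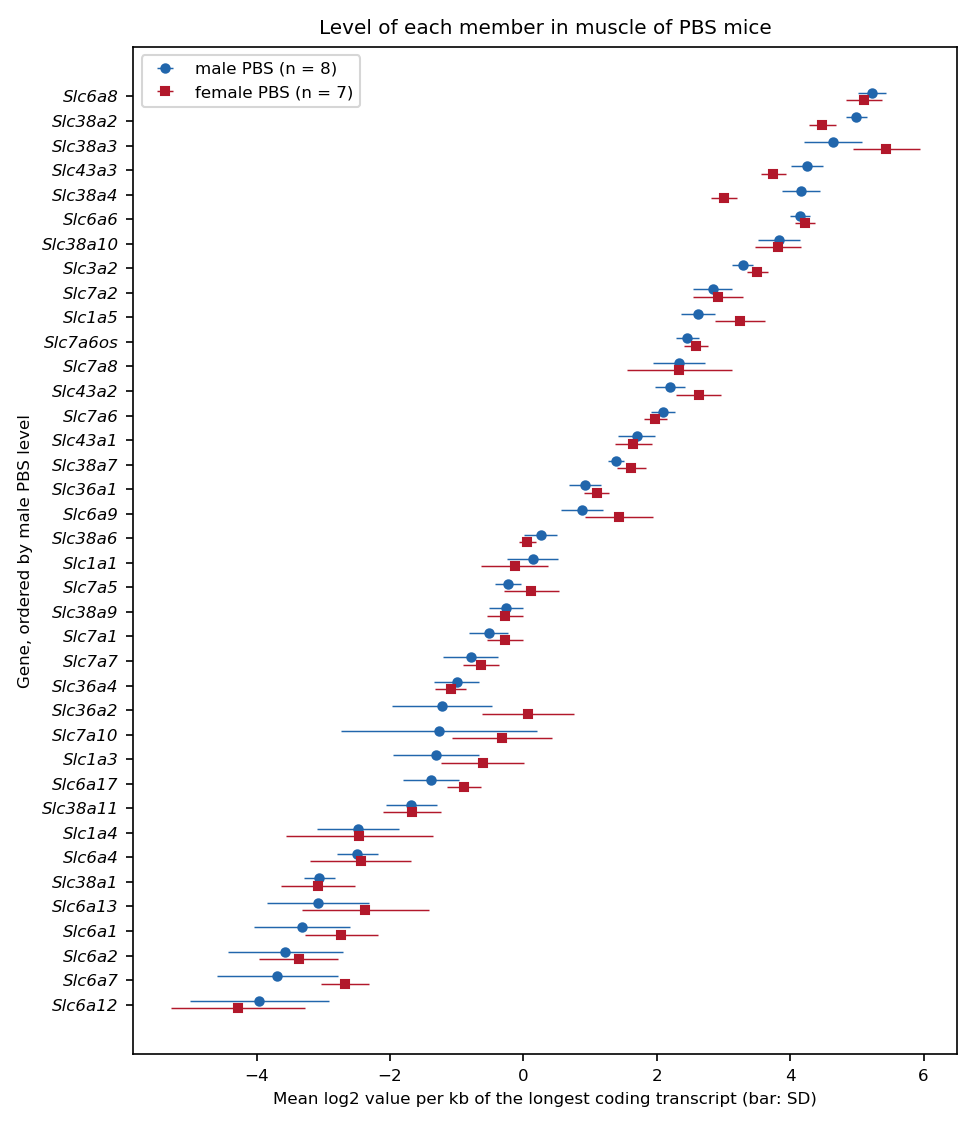
Mean log2 value per kilobase of the longest coding transcript for the 38 members in PBS mice, females (squares, n = 7) and males (circles, n = 8), with SD bars, ordered by the male level. Slc6a8 heads the male order at 5.22 and Slc6a12 closes it at -3.96, and the sexes lie farthest apart relative to their SDs at Slc38a4.

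The sexes differed at the PBS level in few members. Slc38a4 (ENSMUSG00000022464), which carries neutral and cationic amino acids and is imprinted in mouse, was higher in males: its log2 values ran from 4.64 over a median of 5.00 to 5.18 in females and from 5.80 over 6.07 to 6.62 in males. The groups did not overlap, and the difference was 1.16 ± 0.20 (2.23-fold, limma adjusted p = 4.51e-05). Slc43a3 was 0.50 ± 0.13 higher in males (adjusted p = 0.0175), but not when libraries of high GC slope were left out (0.159). Slc38a2 also lay higher in every male than in every female library, at 6.99 to 7.40 against 6.30 to 6.95, but did not pass (0.50 ± 0.18, adjusted p = 0.117). In all, 2 of 38 members passed, both higher in males, beside 3.39% of all genes (2.2% higher and 1.19% lower), and 2 of 38 did not overlap, beside 1.86% of all genes. This comparison was added after the values had been seen.

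With the tumour and no drug, the heavy chain of the exchangers rose in both sexes, together with the cationic carrier Slc7a2, the light chain Slc7a7 and the betaine carrier Slc6a12, and the taurine carrier Slc6a6 fell. In females 6 of 38 members passed in C26 saline against PBS mice (5 higher, 1 lower), beside 6.7% of all genes (4.14% higher and 2.56% lower). In males 13 of 38 passed (10 higher, 3 lower), beside 26.1% of all genes (13.1% higher and 13% lower). The median difference of the 38 members was 0.03 in females and 0.16 in males, while the median of all genes was -0.01 and 0. The sexes shared 5 of these calls, which is 83.3% of the female and 38.5% of the male calls, and all 5 had the same direction in both. The same overlap was not counted over all genes, so it cannot be called particular to the carriers. The groups did not overlap for 3 members in females and 2 in males, beside 2.42% and 4.9% of all genes.

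Slc3a2 (ENSMUSG00000010095) showed the smallest adjusted p of any member in the tumour comparison of males. Its values ran from 4.77 over 4.97 to 5.23 in female PBS mice and from 5.26 over 5.78 to 6.02 in female C26 saline mice. In males they ran from 4.53 over 4.76 to 4.96 without and from 5.46 over 5.80 to 6.06 with the tumour. Every tumour-bearing library lay above every PBS library of its sex. The rise was 0.72 ± 0.15 in females (1.64-fold, limma adjusted p = 0.000792) and 1.05 ± 0.14 in males (2.06-fold, adjusted p = 3.02e-08).

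Of the light chains, Slc7a7 (y+LAT1, which exports cationic amino acids in exchange for neutral ones and sodium) also rose in both sexes. Its values were 0.14, 0.58 and 0.85 (lowest, median and highest) in female PBS mice and 0.96, 1.20 and 2.02 with the tumour, and -0.41, 0.43 and 1.09 in male PBS mice and 0.46, 1.38 and 1.89 with it. The female groups did not overlap, while in males 1 tumour library lay among the PBS libraries. The rise was 0.78 ± 0.22 in females (adjusted p = 0.0194) and 0.93 ± 0.21 in males (adjusted p = 0.00038). The female call was lost without PBS replicate 7 (adjusted p = 0.0539) or without C26 saline replicate 2 (0.0649). Exons of Slc7a7 share 7.0% of their bases with Oxa1l on the opposite strand, and whether the counting used strand is not given in the sources used here.

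In males Slc7a6 (y+LAT2), Slc7a5 and the SLC43 carriers Slc43a1 and Slc43a2 (LAT3 and LAT4) rose as well. Slc43a2 ran from 4.59 over 5.09 to 5.33 in PBS and from 5.58 over 5.92 to 6.14 in C26 saline males, with no overlap, a rise of 0.86 ± 0.17 (1.81-fold, adjusted p = 5.94e-05). Slc7a6 rose by 0.80 ± 0.17 (adjusted p = 0.000172), Slc43a1 by 1.06 ± 0.30 (adjusted p = 0.00455) and Slc7a5 by 0.70 ± 0.21 (adjusted p = 0.00744). Slc7a6os, beside Slc7a6, rose by 0.40 ± 0.09 (adjusted p = 0.000639). Slc7a5 values were 1.30, 1.63 and 1.83 in PBS males and 1.69, 2.25 and 2.85 with the tumour, so the groups overlapped at their edges. In females these 4 genes did not pass: Slc43a2 differed by 0.19, Slc7a6 by 0.35, Slc7a5 by 0.06 and Slc43a1 by 0.84 ± 0.32 (adjusted p = 0.1). Slc7a8 lay 1.02 ± 0.38 higher in females and 0.83 ± 0.36 higher in males, without passing (adjusted p = 0.102 and 0.0803).

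Slc43a3, the member of SLC43 that carries purine nucleobases in studies of the human protein and is not known as an amino acid carrier, rose in females by 0.81 ± 0.14 (1.75-fold, adjusted p = 3.72e-05). Its values were 4.92, 5.07 and 5.44 in female PBS mice and 5.66, 5.86 and 6.19 with the tumour, with no overlap. In males, where the PBS level was higher, the values were 5.25, 5.69 and 5.90 without and 5.52, 5.95 and 6.48 with the tumour, and the groups overlapped. The difference of 0.33 ± 0.13 in males did not pass (adjusted p = 0.051). The difference between the sexes in this effect, -0.48 ± 0.19 (male minus female), did not pass either (adjusted p = 0.429). Counted together, 3 of the 9 members made up of the heavy chain, its light chains and SLC43 rose in females (median 0.72) and 6 of 9 in males (median 0.83), and 0 fell. That is 33.3% beside 6.7% of all genes in females and 66.7% beside 26.1% in males, with both directions counted.

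**Figure D2:**
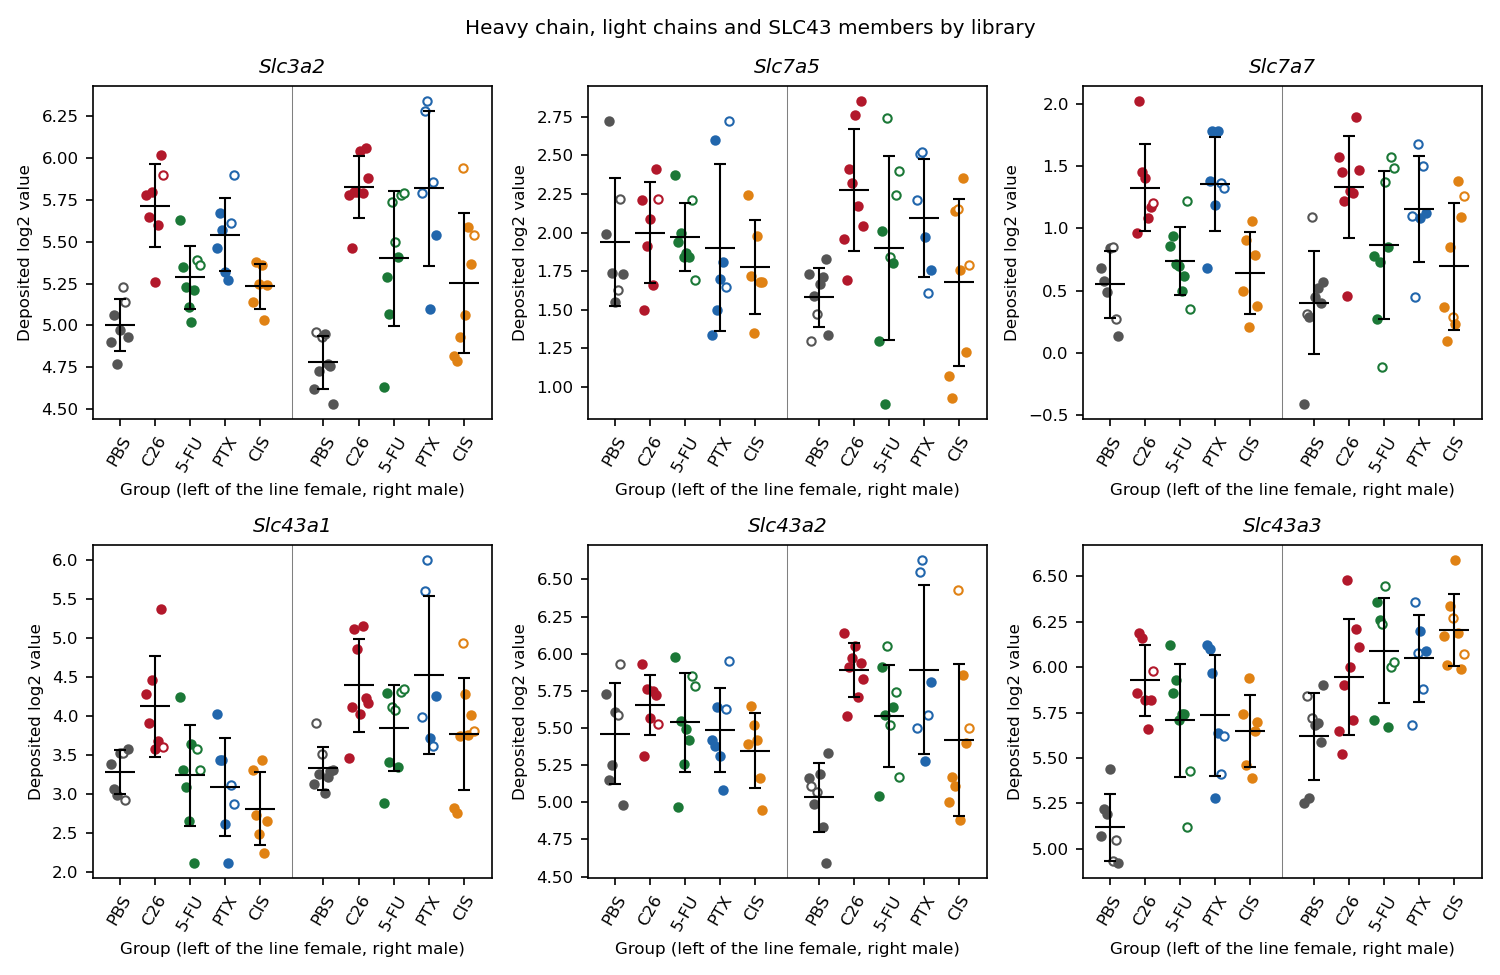
Deposited log2 value of each library for the heavy chain Slc3a2, the light chains Slc7a5 and Slc7a7 and the 3 SLC43 members, by group (PBS, C26 saline, 5-fluorouracil, paclitaxel and cisplatin, females left of the line and males right). Bars are mean and SD, and open symbols are libraries with a GC slope above 0.1. For Slc3a2 all C26 saline libraries lie above all PBS libraries of their sex, with the lowest at 5.26 in females and 5.46 in males.

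Of the 6 heavy chain, light chain and SLC43 members that rose in tumour-bearing males, Slc7a5, Slc7a6 and Slc43a2 are not printed. No motif match is listed for them below. Promoter sequences of the other 3, Slc3a2, Slc7a7 and Slc43a1, are shown. They run from 250 bases before the annotated start to 10 after it, 5′ to 3′ on the gene's strand, and come from RefSeq (build GRCm38.p6), which lists 1 start for Slc3a2 and Slc43a1 and 5 for Slc7a7, of which the one farthest upstream is given. Both strands were searched for TGATGNAA (the core of the C/EBP-ATF element), the glucocorticoid element, TTCNNNGAA (STAT element) and CACGTG (E-box), of which the last 2 read the same on both strands, and matches are in capitals.
Slc3a2, chr19:8713888-8714147, minus strand: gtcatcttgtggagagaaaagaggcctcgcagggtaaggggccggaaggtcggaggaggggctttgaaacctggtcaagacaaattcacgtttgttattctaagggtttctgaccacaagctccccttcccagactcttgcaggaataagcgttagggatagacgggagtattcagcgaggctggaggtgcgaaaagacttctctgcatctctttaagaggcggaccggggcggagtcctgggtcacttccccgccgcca
Slc7a7, chr14:54417935-54418194, minus strand: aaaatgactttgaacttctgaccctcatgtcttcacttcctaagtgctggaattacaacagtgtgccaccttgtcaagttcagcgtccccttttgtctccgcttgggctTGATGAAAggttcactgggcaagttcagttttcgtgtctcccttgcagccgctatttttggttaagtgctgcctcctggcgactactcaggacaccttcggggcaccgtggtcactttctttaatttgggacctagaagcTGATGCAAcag
Slc43a1, chr2:84840073-84840332, plus strand: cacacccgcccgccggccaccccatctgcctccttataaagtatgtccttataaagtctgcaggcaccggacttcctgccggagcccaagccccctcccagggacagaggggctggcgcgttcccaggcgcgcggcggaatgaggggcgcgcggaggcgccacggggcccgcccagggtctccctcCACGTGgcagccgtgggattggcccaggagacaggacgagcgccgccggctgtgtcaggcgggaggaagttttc
RefSeq promoters were at hand for 26 of the 38 members. The shares below count a gene where any of its listed starts matched, over promoter stretches longer than those printed. Genes with several starts, such as Slc7a7, thus had more stretches in which to match. TGATGNAA matched in Slc7a7 and Slc1a4, which is 7.7% of these members beside 4.5% of 27025 genes, and CACGTG in Slc43a1, Slc36a1 and Slc38a7, which is 11.5% beside 8.1%. TTCNNNGAA matched in Slc1a3, Slc38a9 and Slc7a1 (11.5% beside 9.6%) and the glucocorticoid element in 0 of 26 (0.5% of genes). No motif matched in the Slc3a2 stretch.

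The cationic carrier Slc7a2 (CAT2), which brings in arginine and lysine, rose with the tumour in both sexes. Its values were 5.36, 5.99 and 6.29 in female PBS mice and 5.69, 6.65 and 8.12 in female C26 saline mice, and 5.35, 5.78 and 6.28 in male PBS mice and 5.63, 7.00 and 8.16 in male C26 saline mice. The upper tumour libraries stood far above all PBS libraries, while the lowest of each sex lay among them. The rise was 1.00 ± 0.32 in females (2.01-fold, adjusted p = 0.0404) and 1.26 ± 0.30 in males (2.40-fold, adjusted p = 0.00075). The female call was lost with the compared groups alone (adjusted p = 0.0555) and when any one of 7 libraries was left out (up to 0.156, without C26 saline replicate 1). Slc7a1 (CAT1), the other cationic carrier measured, differed by -0.37 ± 0.16 in females and 0.13 ± 0.15 in males and did not pass.

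Among SLC6 members, Slc6a12 (BGT1, a carrier of betaine and GABA known as an osmolyte carrier in kidney) rose by 1.58 ± 0.51 in females (adjusted p = 0.0432) and 2.13 ± 0.47 in males (adjusted p = 0.000353). In males its values ran from -4.24 over -2.44 to -0.92 in PBS mice and from -1.20 over -0.58 to 0.50 with the tumour. These values rest on few reads, with a median of 3 estimated reads per library in male PBS and 16 in male C26 saline mice, and 4 and 9 in females. The female call was lost under quantile normalization (adjusted p = 0.0839), with a pseudocount of 1 (0.0959) and when any one of 10 libraries was left out (up to 0.167, without PBS replicate 7).

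The taurine carrier Slc6a6 fell by 0.50 ± 0.16 in females (adjusted p = 0.0382) and by 0.41 ± 0.15 in males (adjusted p = 0.0305). Its values were 6.59, 6.82 and 7.05 in female PBS mice and 6.02, 6.40 and 6.65 with the tumour, and 6.57, 6.77 and 7.03 in male PBS mice and 5.92, 6.27 and 6.98 with it. The groups overlapped in both sexes, and each call was lost without several single libraries (8 in females, adjusted p up to 0.0983 without C26 saline replicate 3, and 6 in males, up to 0.0773 without C26 saline replicate 4). It was also lost in females without the libraries of high GC slope (0.0686). The serotonin carrier Slc6a4 rose in males by 0.99 ± 0.34 (adjusted p = 0.0228), from -1.29, -1.06 and -0.33 to -0.94, 0.05 and 0.55. The proline carrier Slc6a7 fell in males by 1.82 ± 0.50 (adjusted p = 0.00419), where 3 of 8 tumour libraries were listed at 0 and the median was 1.5 estimated reads against 4 in PBS males. With a pseudocount of 1 that call was lost (adjusted p = 0.0503). Slc6a8 differed by less than 0.2 in both sexes and did not pass.

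Of SLC38, 0 of 9 members passed in females. In males Slc38a10 (SNAT10) fell by 0.41 ± 0.13 (adjusted p = 0.0158), and the call was lost without PBS replicate 2 (0.0624). None of the 4 SLC1 members, which include the glutamine exchanger Slc1a5 (ASCT2), passed in any of the 14 comparisons within a sex, and neither did any of the 3 SLC36 members. Slc1a5 values were 4.24, 4.79 and 5.39 in female PBS mice and 4.17, 4.69 and 5.20 with the tumour, and 3.77, 4.07 and 4.41 in male PBS mice and 3.77, 4.04 and 4.52 with it. The lysosomal proton-coupled carrier Slc36a1 (PAT1) lay at medians of 3.57 and 3.45 in females and 3.34 and 3.43 in males, in PBS and C26 saline mice.

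**Figure D3:**
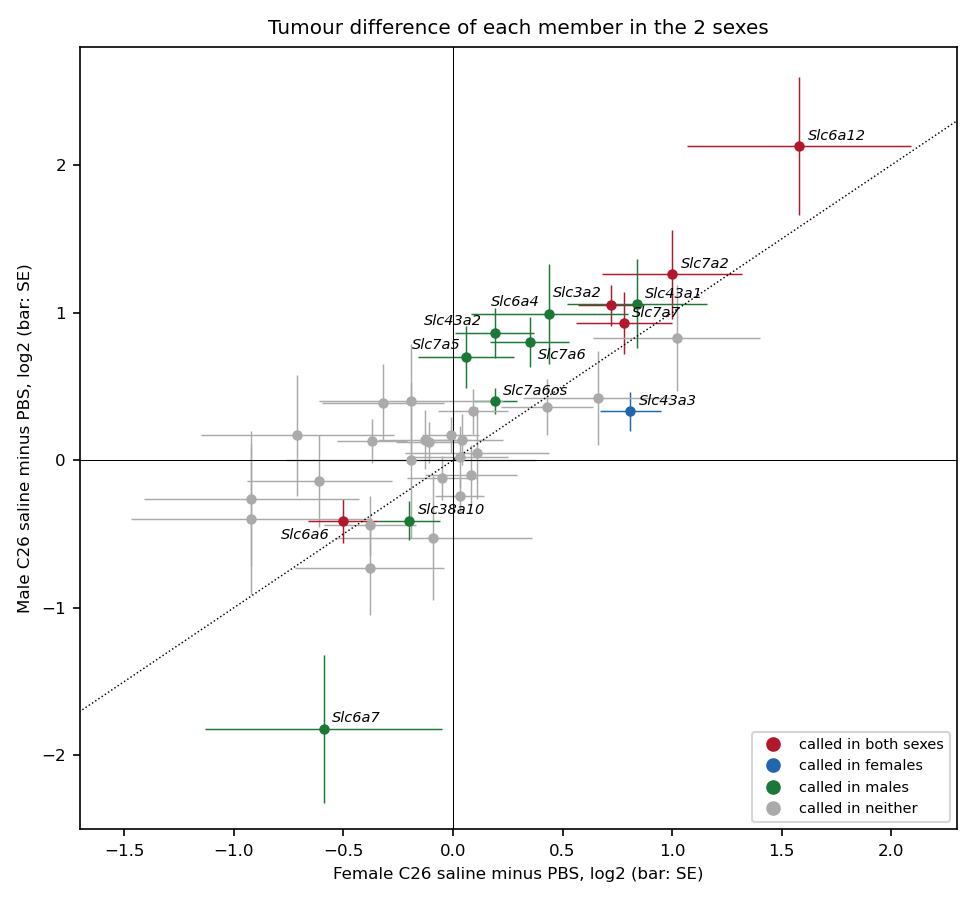
Difference of C26 saline minus PBS (log2) of the 38 members in females (horizontal) and males (vertical), with standard errors, coloured by the sexes in which the gene passed. The dotted line marks equal differences. Slc6a12, Slc7a2, Slc7a7 and Slc3a2 lie high in both sexes, Slc7a5 and Slc43a2 lie high in males and near 0 in females, and Slc43a3 lies higher in females.

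None of the 38 members passed the test of a difference between the sexes in the tumour effect, and 5 of 13856 genes did (0.0361%). By unadjusted p, 4 members lay under 0.05. The smallest of these was Slc43a2, whose rise was 0.67 ± 0.25 larger in males (unadjusted p = 0.00826, adjusted p = 0.361), followed by Slc43a3. Slc7a5 differed by 0.63 ± 0.30 between the sexes (unadjusted p = 0.0384, adjusted p = 0.572).

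Markers of some other cells moved in the same comparisons, in which 4.14% of all genes passed as higher and 2.56% as lower in females. In males 13.1% of all genes passed as higher and 13% as lower. Of 12 macrophage markers 6 rose in females and 8 in males, and their summed level ran from 6.10 to 7.07 in female PBS and 7.11 to 7.95 in female C26 saline mice, and from 6.21 to 6.75 and 6.59 to 8.00 in males. Of the 7 neutrophil markers measured, 6 rose in females and 7 in males, with summed levels of 0.14 to 1.97 in PBS and 2.52 to 5.22 in C26 saline females, and 0.51 to 3.62 and 3.35 to 5.05 in males. Of 11 endothelial markers 1 fell in females (sum 8.76 to 9.11 and 8.86 to 9.11), and 4 rose and 2 fell in males (8.64 to 9.02 and 8.69 to 9.40). Of 6 erythroid markers 2 rose in females (7.90 to 9.66 and 8.84 to 10.52) and 1 in males (9.17 to 12.21 and 9.99 to 10.97). Of 10 fibro-adipogenic markers 2 rose in females, and 3 rose and 1 fell in males (10.19 to 10.92 and 10.10 to 11.10 in females, 10.02 to 11.15 and 10.11 to 11.05 in males). Of 8 adipocyte markers 1 rose in females (9.59 to 10.44 and 10.37 to 11.25), and 1 rose and 1 fell in males, where the sum lay at 9.16 to 9.50 in PBS and 10.09 to 11.26 in C26 saline mice and did not overlap. Of 8 satellite cell markers 0 passed in females (5.11 to 5.72 and 5.29 to 6.13), and 1 rose and 1 fell in males (5.04 to 5.25 and 5.34 to 5.85, with no overlap). Of 9 markers of Schwann cells and nerve 0 passed in either sex. Only 1 of 10 B and T cell markers was measured, and it fell in females. The summed levels add linear values before the log2 is taken, so 1 abundant marker can carry a sum. No measured marker was at 0 in every library of a group. The part of these cells in the rise of Slc3a2, Slc7a7, Slc7a2 or the SLC43 members was not tested.

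The 5-fluorouracil, paclitaxel and cisplatin arms were each compared with C26 saline mice, which are also the tumour group above. The values of both comparisons therefore share libraries. In females few members passed: 0 of 38 with 5-fluorouracil (1.35% of all genes), 0 with paclitaxel (0% of all genes) and 1, which was lower, with cisplatin (1.66%, with 0.346% higher and 1.31% lower). By unadjusted p under 0.05 there were 7, 6 and 8 members in these comparisons. With quality weights 5, 1 and 8 members passed, and cisplatin gave 4 with the compared groups alone and 4 without the libraries of high GC slope. The member that fell with cisplatin was Slc43a1, at 3.57, 3.91 and 5.37 in C26 saline and 2.24, 2.69 and 3.43 in cisplatin females. The groups did not overlap, as for 2.3% of all genes, and the difference was -1.32 ± 0.33 (2.49-fold lower, limma adjusted p = 0.0212). The call was lost without C26 saline replicate 6 (0.109) and without cisplatin replicate 3, 5 or 6 (0.073, 0.086 and 0.0513). With paclitaxel Slc43a1 differed by -1.04 ± 0.32 and with 5-fluorouracil by -0.89 ± 0.31, and neither passed (adjusted p = 0.514 and 0.172). Slc6a12 did not overlap between 5-fluorouracil and C26 saline females (0.383% of all genes) but did not pass, at -1.60 ± 0.49 (adjusted p = 0.0902).

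In males given cisplatin, 12 of 38 members passed against C26 saline (2 higher, 10 lower), beside 15.9% of all genes (7.66% higher and 8.23% lower), and the median of the members was -0.28 against -0.04 for all genes. Of the 9 heavy chain, light chain and SLC43 members 5 fell and 0 rose (median -0.57), which is 55.6% beside 15.9% of all genes. Slc3a2 ran from 5.46 over 5.80 to 6.06 in C26 saline and from 4.79 over 5.22 to 5.94 in cisplatin males, a fall of 0.57 ± 0.14 (adjusted p = 0.00247). Most cisplatin libraries lay below all C26 saline libraries, and the rest among them. Slc7a6 fell by 0.68 ± 0.17 (adjusted p = 0.00249), Slc7a7 by 0.63 ± 0.21 (0.026), Slc7a5 by 0.60 ± 0.21 (0.0354) and Slc43a2 by 0.47 ± 0.17 (0.044). The calls of Slc7a7, Slc7a5 and Slc43a2 were each lost with the compared groups alone (adjusted p = 0.101, 0.112 and 0.114) and when any one of several libraries was left out (5, 6 and 11 libraries). With the compared groups alone 4 of 38 members passed.

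Both cationic carriers fell with cisplatin in males, Slc7a2 by 0.99 ± 0.30 (adjusted p = 0.0155) and Slc7a1 by 0.47 ± 0.15 (adjusted p = 0.0229). Slc7a1 ran from 2.04 over 2.44 to 2.86 in C26 saline and from 1.70 over 1.98 to 2.56 in cisplatin males. Slc7a2 ran from 5.63 over 7.00 to 8.16 and from 5.61 over 5.95 to 6.79, so all cisplatin libraries lay below the C26 saline median. The Slc7a2 call was lost without C26 saline replicate 3 or 6 (adjusted p = 0.0535 and 0.053), and that of Slc7a1 without C26 saline replicate 6 (0.0664), without cisplatin replicate 7 (0.053) and with the compared groups alone (0.059). Slc6a12 fell by 1.98 ± 0.47 (adjusted p = 0.00191) and Slc6a4 by 1.25 ± 0.34 (adjusted p = 0.00678). Slc6a7 rose by 1.90 ± 0.50 (adjusted p = 0.00527), from a median of 1.5 to one of 5.5 estimated reads, and the call was lost with a pseudocount of 1 (0.081). The glutamine carrier Slc38a3, named after its values were seen, rose by 0.98 ± 0.32 (adjusted p = 0.0244), from 3.68, 5.68 and 6.89 in C26 saline to 5.99, 6.41 and 7.48 in cisplatin males. Its lowest C26 saline value was that of replicate 6. With the compared groups alone Slc3a2, Slc7a6, Slc7a2 and Slc6a12 were the members that passed, so the cisplatin call of Slc38a3 was lost there. How its calls, with cisplatin and with 5-fluorouracil, depend on the other settings and on single libraries is not given here. The neighbour gene Slc7a6os fell by 0.38 ± 0.09 (adjusted p = 0.00246). With the compared groups alone the calls of Slc6a7, Slc6a4 and Slc7a6os were lost (0.0595, 0.0522 and 0.0531).

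With 5-fluorouracil in males 10 of 38 members passed (2 higher, 8 lower), beside 23.3% of all genes (11.3% higher and 12% lower), and the member median was -0.14 against -0.03 for all genes. Slc7a6 fell by 0.62 ± 0.17 (adjusted p = 0.00516), Slc7a2 by 1.01 ± 0.30 (0.0104), Slc6a12 by 1.62 ± 0.47 (0.00992), Slc6a4 by 0.92 ± 0.34 (0.0409) and Slc7a1 by 0.41 ± 0.15 (0.0428). Slc3a2 fell by 0.43 ± 0.14 (adjusted p = 0.0213), with values of 4.63, 5.45 and 5.79 in treated males. That call was lost without 5-fluorouracil replicate 1 (0.0753) and with the compared groups alone (0.0546). Slc7a1 lost its call in 13 of the settings run, among them without the libraries of high GC slope (0.0583), and Slc6a4 in 12, among them with the GC slope as a covariate (0.123). Slc38a3 rose by 0.95 ± 0.32 (adjusted p = 0.0234) and Slc7a6os fell by 0.37 ± 0.09 (0.00284).

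In both the 5-fluorouracil and the paclitaxel arm of males Slc38a9 fell and Slc38a10 rose. Slc38a9, which senses arginine at the lysosome, ran from 3.06 over 3.24 to 3.50 in C26 saline males, from 2.04 over 2.85 to 3.17 with 5-fluorouracil and from 1.97 over 2.68 to 2.93 with paclitaxel. All 6 paclitaxel libraries lay below all C26 saline libraries. The differences were -0.52 ± 0.15 (adjusted p = 0.00832) and -0.64 ± 0.16 (adjusted p = 0.00324). Slc38a10 ran from 5.35 over 5.65 to 5.84 in C26 saline males, from 5.84 over 6.04 to 6.32 with 5-fluorouracil and from 5.90 over 6.08 to 6.33 with paclitaxel, and rose by 0.44 ± 0.13 (adjusted p = 0.0127) and 0.49 ± 0.14 (adjusted p = 0.00917). GC slope moved with these arms, at a mean of -0.106 ± 0.062 (SD) in C26 saline, 0.121 ± 0.256 in 5-fluorouracil and 0.267 ± 0.262 in paclitaxel males, and the 2 genes differ in GC content (44.7% in Slc38a9 and 57.6% in Slc38a10). With the slope as a covariate the paclitaxel differences became -0.19 for Slc38a9 (adjusted p = 0.239) and 0.13 for Slc38a10 (0.533). Without the libraries of high slope they were -0.35 and 0.34 and did not pass (0.114 and 0.15), with 2 paclitaxel libraries left. For 5-fluorouracil, Slc38a10 lost its call with the covariate (0.22, adjusted p = 0.0756) and Slc38a9 without those libraries (-0.26, adjusted p = 0.0882).

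Paclitaxel in males gave 6 of 38 members that passed (3 higher, 3 lower), beside 31.9% of all genes (13.5% higher and 18.5% lower). The groups did not overlap for 2 members, beside 1.49% of all genes. Besides Slc38a9 and Slc38a10, Slc6a7 rose by 2.02 ± 0.54 (adjusted p = 0.00536), Slc7a2 fell by 0.92 ± 0.32 (0.0251), Slc38a2 fell by 0.46 ± 0.19 (0.0488) and the glycine carrier Slc6a9, named after its values were seen, rose by 0.58 ± 0.21 (0.0312). The rise of Slc6a7 was from a median of 1.5 to one of 6 estimated reads. The Slc7a2 call was lost without C26 saline replicate 3 or 6 or paclitaxel replicate 1 or 5 (adjusted p up to 0.135), and that of Slc38a2 when any one of 8 libraries was left out (up to 0.15). For Slc6a9 the dependence on single libraries is not given here. Without the libraries of high GC slope 0 of these 6 passed, and with the slope as a covariate 1 did. Of the heavy chain, light chain and SLC43 members 0 of 9 passed (median 0). Slc3a2 lay at 5.10, 5.83 and 6.34 in paclitaxel males, a range that spans that of C26 saline males.

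**Figure D4:**
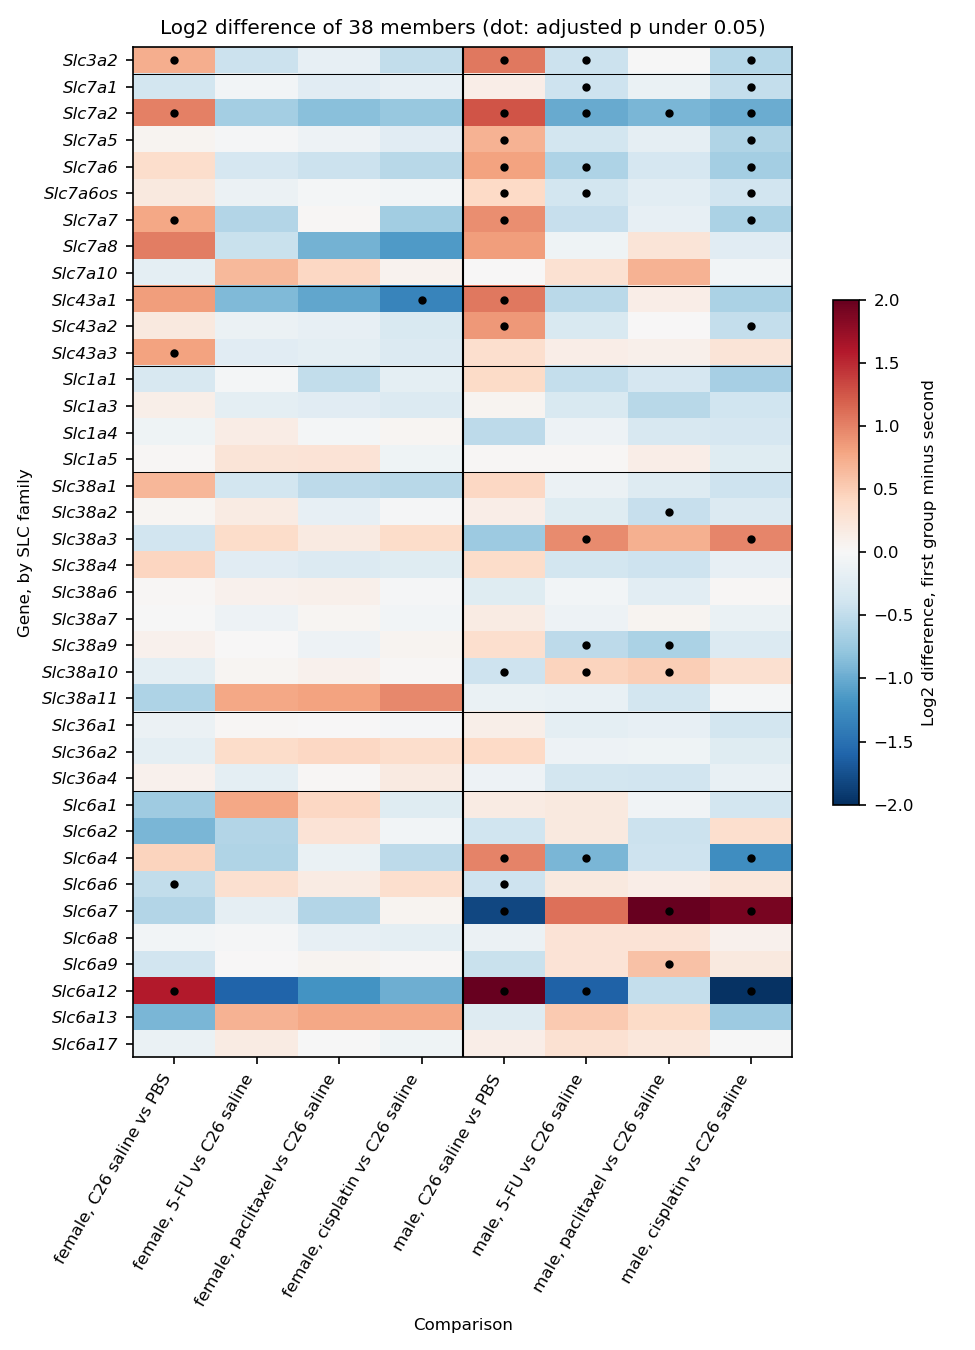
Log2 difference of the 38 members in the tumour comparison and the 3 drug comparisons with C26 saline, in females and males, by family. Red is higher and blue lower in the first group, colours end at 2 in either direction, and a dot marks an adjusted p under 0.05. Males have 13, 10, 6 and 12 dots for the tumour, 5-fluorouracil, paclitaxel and cisplatin, females have 6 for the tumour and 1 for cisplatin, and the SLC1 and SLC36 rows hold none.

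**Figure D5:**
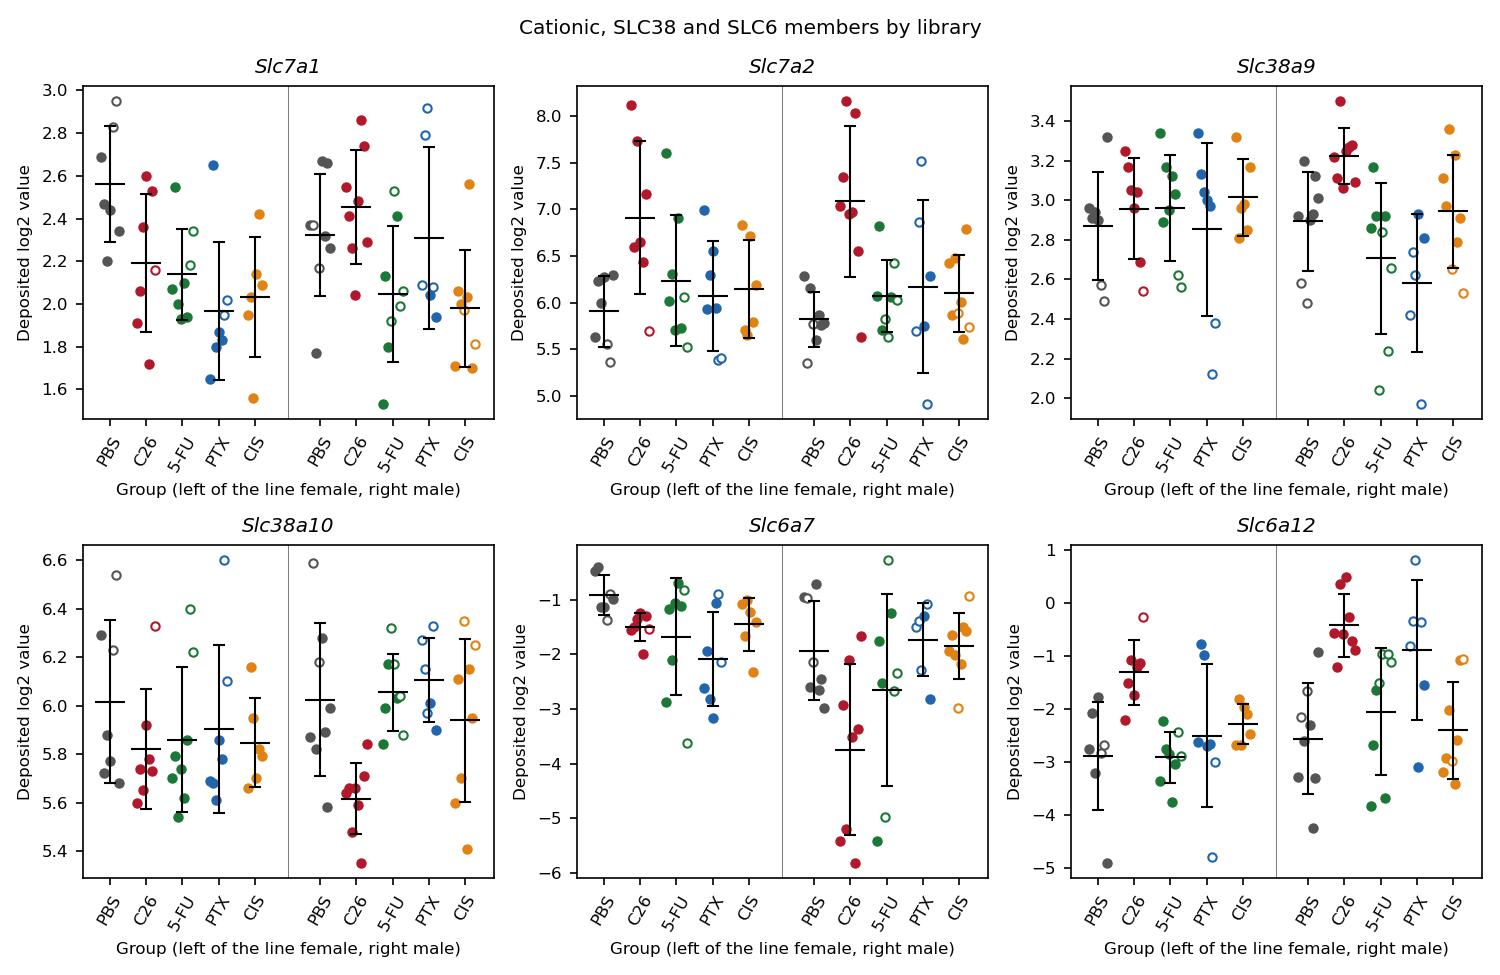
Deposited log2 value of each library for the cationic carriers Slc7a1 and Slc7a2, the SLC38 members Slc38a9 and Slc38a10 and the SLC6 members Slc6a7 and Slc6a12, by group as in the plot of the heavy chain. Bars are mean and SD, and open symbols are libraries with a GC slope above 0.1. Open symbols lie low for Slc38a9 and high for Slc38a10 in most groups, and the male C26 saline group has none.

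Myeloid and myofibre markers moved in the drug arms too. Against C26 saline, macrophage markers fell in 5 of 12 with 5-fluorouracil in females, and in males in 4 with 5-fluorouracil, 1 with paclitaxel and 3 with cisplatin. Neutrophil markers fell in 6 of 7 with 5-fluorouracil and 2 with cisplatin in females, and in males in 7 with 5-fluorouracil, 0 with paclitaxel and 7 with cisplatin. Their summed level in males was 3.35 to 5.05 in C26 saline, 0.80 to 4.05 with 5-fluorouracil, 2.96 to 5.03 with paclitaxel and 0.37 to 3.64 with cisplatin. Of 12 myofibre markers 4, 5 and 4 rose with the 3 drugs in males, and 4 of 12 had fallen there in the tumour comparison. Of all genes in males, 11.3%, 13.5% and 7.66% passed as higher and 12%, 18.5% and 8.23% as lower with the 3 drugs. With the tumour 13% passed as lower there. In females 1.35% of all genes passed in either direction with 5-fluorouracil and 1.31% as lower with cisplatin. The part of these cells in the members' changes was not tested.

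Each drug arm was also compared with PBS mice of the same sex. These 3 comparisons of a sex share the PBS libraries with each other and with the tumour comparison. In females 1 of 38 was higher with 5-fluorouracil, beside 0.383% of all genes (0.209% higher and 0.173% lower). With paclitaxel 3 were higher and 1 lower, beside 4.58% (2.89% higher and 1.69% lower), and with cisplatin 0 passed, beside 0.209%, with 3 members under an unadjusted p of 0.05. In males 3 were higher with 5-fluorouracil, beside 4.76% (2.52% higher and 2.24% lower). With paclitaxel 8 were higher and 1 lower, beside 37.5% (16.9% higher and 20.6% lower), and with cisplatin 1 was higher, beside 0.902% (0.556% higher and 0.346% lower).

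Slc43a3 was above PBS in 5 of the 6 drug arms by limma: by 0.59 ± 0.13 (adjusted p = 0.0179) with 5-fluorouracil and 0.62 ± 0.14 (0.00304) with paclitaxel in females, and by 0.47 ± 0.13 (0.0245), 0.43 ± 0.14 (0.0142) and 0.58 ± 0.13 (0.0106) with 5-fluorouracil, paclitaxel and cisplatin in males. In cisplatin females it did not pass, with values of 5.39 to 5.94 against 4.92 to 5.44 in PBS females. Only 0.209% of all genes passed in that comparison. The female 5-fluorouracil call of Slc43a3 was lost without PBS replicate 5 or 7 or 5-fluorouracil replicate 1 or 3 (adjusted p up to 0.0744). That in 5-fluorouracil males was lost without PBS replicate 1 or 3 or 5-fluorouracil replicate 4 or 5 (up to 0.0645), under quantile normalization (0.0576) and with the compared groups alone (0.0563), and that in paclitaxel males without paclitaxel replicate 2 (0.0534) and under quantile normalization (0.0596). In cisplatin males its values, 5.99 to 6.59, lay above all PBS values (0.245% of all genes did not overlap). Slc3a2 was above PBS with paclitaxel in females (0.54 ± 0.15, adjusted p = 0.0194, no overlap, as for 1.9% of all genes) and with 5-fluorouracil (0.62 ± 0.14, 0.00576) and paclitaxel (1.04 ± 0.15, 1.94e-06, no overlap, as for 2.63%) in males. Slc43a2 was 0.55 ± 0.17 (0.0432) and 0.86 ± 0.18 (0.000577) higher with 5-fluorouracil and paclitaxel in males. The Slc3a2 call in paclitaxel females was lost without paclitaxel replicate 7 (0.0685), and the Slc43a2 call in 5-fluorouracil males once GC slope entered as a covariate (0.168) or when any one of 10 libraries was left out (up to 0.138, without 5-fluorouracil replicate 4). In paclitaxel males Slc43a1 (1.20 ± 0.32, 0.0041), Slc7a8 (1.09 ± 0.39, 0.0237), Slc7a7 (0.75 ± 0.22, 0.00834), Slc7a6 (0.46 ± 0.18, 0.0401) and Slc6a12 (1.67 ± 0.51, 0.0103) were higher and Slc38a6, named after its values were seen, was lower (-0.45 ± 0.11, 0.00272). Of the heavy chain, light chain and SLC43 members 7 of 9 were thus above PBS in paclitaxel males (77.8%, beside 37.5% of all genes in either direction). When 1 library was left out, the call of Slc7a6 was lost for any of 6 libraries (up to 0.273, without paclitaxel replicate 3), that of Slc7a8 without paclitaxel replicate 2, 3 or 5 (up to 0.115) and that of Slc6a12 without paclitaxel replicate 3 (0.0536). With the compared groups alone Slc7a6 and Slc38a6 lost theirs (0.119 and 0.056). None of the 38 passed there without the libraries of high GC slope, when 2 paclitaxel libraries remain, and 5 did with the slope as a covariate. Without those libraries 0 members passed for 5-fluorouracil against PBS in males as well. In paclitaxel females Slc7a7 was 0.80 ± 0.22 higher (0.0195) and Slc7a1 0.59 ± 0.16 lower (-0.59, 0.0185). The Slc7a7 call was lost without PBS replicate 7 or paclitaxel replicate 3 or 5 (up to 0.0595), and the Slc7a1 call without PBS replicate 6 (0.0548), with the compared groups alone (0.0513) and without the libraries of high GC slope (0.147).

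No member passed the test of a difference between the sexes in a drug effect (male minus female, each drug against C26 saline), and 0 of 13856 genes did (0% for each drug). With quality weights 5 members passed for paclitaxel. By unadjusted p under 0.05 there were 3 members with 5-fluorouracil, 6 with paclitaxel and 5 with cisplatin. The smallest p was that of Slc6a7 with paclitaxel, at 2.61 ± 0.76 (unadjusted p = 0.00108, adjusted p = 0.226). It rests on few reads, with medians of 1.5 and 6 estimated reads in C26 saline and paclitaxel males and 9 and 4 in females. Of the 8 C26 saline males 3 were listed at 0.

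Genes that work with the carriers were counted list by list, and each share stands beside that of all genes, which was 6.7% in females and 26.1% in males for the tumour. In the list of the ATF4 response, by which a cell short of amino acids raises synthesis and uptake genes, 3 of 31 measured genes rose and 1 fell with the tumour in females (median 0.04), and 8 rose and 4 fell in males (median 0.09), which is 12.9% and 38.7% of the list. Asns, which makes asparagine, rose by 0.83 ± 0.24 in females (adjusted p = 0.0225) and 1.27 ± 0.22 in males (1.03e-05). The translation repressor gene Eif4ebp1 rose by 1.39 ± 0.37 in females (0.0127) and 2.39 ± 0.35 in males (2.32e-07). Chac1, which breaks down glutathione, rose by 1.95 ± 0.41 in females (0.000971), the secreted glycoprotein gene Stc2 by 1.76 ± 0.37 in males (0.000158), while Cth, which makes cysteine, fell by 1.05 ± 0.32 in females (0.0336) and Psph, of serine synthesis, by 0.55 ± 0.12 in males (0.000235). With 5-fluorouracil in males 4 of 31 rose and 5 fell (29%, beside 23.3% of all genes), and with paclitaxel 1 rose and 3 fell (12.9%, beside 31.9%). With cisplatin in males 6 of 31 fell and 1 rose (22.6%, beside 15.9%), among them Eif4ebp1 (-1.83 ± 0.35, 0.000108), Asns (-1.01 ± 0.22, 0.000763) and Atf3 (-1.90 ± 0.46, 0.00225). In males Eif4ebp1 also fell with 5-fluorouracil (-1.43 ± 0.35, 0.00218) and Asns with paclitaxel (-0.63 ± 0.24, 0.0391). Pycr1 rose in males with 5-fluorouracil (0.65 ± 0.18, 0.00614), paclitaxel (0.64 ± 0.19, 0.0115) and cisplatin (0.69 ± 0.18, 0.0044). In females Chac1 fell with 5-fluorouracil (-1.67 ± 0.40, 0.0137) and cisplatin (-2.41 ± 0.43, 0.00067), and Eif4ebp1 with cisplatin (-1.47 ± 0.39, 0.0323).

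Among 19 measured carriers of amino acids outside the 7 families, 0 rose and 3 fell with the tumour in females, and 1 rose and 3 fell in males (15.8% and 21.1% of the list). The 3 that fell were the same mitochondrial carriers in both sexes. Slc25a29, for basic amino acids, fell by 1.09 ± 0.25 (adjusted p = 0.00242) and 1.10 ± 0.23 (0.000197), Slc25a15, for ornithine, by 0.55 ± 0.15 (0.0166) and 0.84 ± 0.14 (4.49e-06), and Slc25a12, for aspartate and glutamate, by 0.40 ± 0.11 (0.0185) and 0.52 ± 0.10 (7.78e-05), in females and males. The lysosomal histidine and peptide carrier Slc15a4, which is found in immune cells, rose in males by 1.23 ± 0.19 (7.54e-07). Against C26 saline it fell in males with each drug. The differences were -0.78 ± 0.19 (0.00228) with 5-fluorouracil, -0.54 ± 0.21 (0.0367) with paclitaxel and -1.12 ± 0.19 (2.1e-05) with cisplatin.

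Of 15 measured genes of glutamine, glutamate, alanine, arginine and glutathione metabolism 2 rose in females and 5 in males with the tumour, and 0 fell (13.3% and 33.3%, beside 4.14% and 13.1% of all genes higher). Glul, the glutamine synthetase, rose by 0.83 ± 0.27 (adjusted p = 0.0432) and 1.11 ± 0.25 (0.000389), and Oat, of ornithine breakdown, by 0.37 ± 0.11 (0.0218) and 0.52 ± 0.10 (4.59e-05). Of 33 genes of amino acid sensing to mTORC1, 1 rose and 1 fell in females and 4 rose and 4 fell in males (6.06% and 24.2%), shares near those of all genes. Against C26 saline in males 39.4%, 48.5% and 24.2% of this list passed with 5-fluorouracil, paclitaxel and cisplatin. The shares of all genes were 23.3%, 31.9% and 15.9%, and in females 0 of 33 passed with any drug. With the tumour, single genes of this list were Sesn1, a sestrin of the leucine-sensing branch, which rose in males by 1.88 ± 0.29 (7.3e-07), and Mtor, which rose by 0.51 ± 0.14 in females (0.0164) and 0.69 ± 0.13 in males (5.39e-05). Of 22 genes of branched-chain amino acid breakdown 1 fell in females, and 3 rose and 3 fell in males (4.55% and 27.3%), again near all genes. Of 8 genes of creatine and taurine metabolism 0 passed in females and 1 rose and 3 fell in males (50% of the list), where Gamt, which makes creatine, fell by 1.75 ± 0.32 (1.78e-05) and lay 1.15 ± 0.32, 1.30 ± 0.34 and 1.34 ± 0.32 higher with 5-fluorouracil, paclitaxel and cisplatin than in C26 saline males (0.00646, 0.00483 and 0.00185). The taurine synthesis gene Csad rose in males by 0.49 ± 0.12 (0.00133).

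Some members lie side by side on a chromosome in GENCODE vM21. Slc38a1, Slc38a2 and Slc38a4 are neighbours on chromosome 15, Slc6a13 and Slc6a12 on chromosome 6, and Slc36a2 and Slc36a1 on chromosome 11. Of the first 3, Slc38a4 and Slc38a2 were the members without overlap between the sexes in PBS mice, and Slc38a1 lay at medians of 0.02 in females and -0.13 in males. Slc6a13, next to Slc6a12, did not pass in any comparison. Reads of Slc1a1, Slc7a10 and Slc6a9 are uncertain where strand was not used, since 34.1%, 40.3% and 46.8% of their exon bases are shared with 4430402I18Rik, Lrp3 and Ccdc24 on the opposite strand.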

How the data were processed

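RNA sequencing of gastrocnemius was deposited as 1 table of log2 expression values for 13856 genes. Per the submitters' processing notes the tools were FastQC, MultiQC, fastp, Salmon, edgeR and limma with the mouse build mm39 (GRCm39), without versions or roles; the sources used here give neither the filter nor the scaling. Each value has the form of the log2 of an estimated count plus 0.5 over a scaled library size, with 85.1 to 91.6% of values below 200 counts within 0.02 of a whole number. No count test was run, because the deposited values are log2. Of 74 columns 73 were used: 1 female library has conflicting labels (saline in its title, 5-fluorouracil in its treatment), and female PBS replicate 8 was not analysed here. Groups follow titles and treatment labels.

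limma 3.58.1 in R 4.3.3 (lmFit on group means, contrasts.fit, eBayes with trend, 63 residual degrees of freedom) gave two-sided tests, adjusted over all genes. Values for single genes are given for members called within a sex, up to the 14 with the smallest adjusted p, plus 12 with roles in muscle, and for pathway lists for up to 4 called genes per comparison. The members and lists were chosen with earlier results of these data known. GC content, transcript length, neighbours and promoters come from GENCODE vM21 and RefSeq on GRCm38, not the build of the files. Figures used matplotlib 3.10.9. Alternatives were a pseudocount of 1, a floor of 1 on a gene's mean log2 value, the compared groups alone, quality weights, quantile normalization, a replicate block, the GC slope as a covariate, no libraries of high GC slope, and each library left out.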

Additional observations from a re-analysis of the deposited data

Results flagged for a closer look

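In 210 sets of 1 named member in 1 group, 11 held a library whose gap to its nearest neighbour was large against the range of the group by Dixon's test, where chance gives about 1 in 20. Low libraries were female PBS replicate 1 for Slc36a1 (3.08, group median 3.57), male C26 saline replicate 2 for Slc3a2 (5.46, median 5.80), female C26 saline replicate 5 for Slc6a7 (-2.0, median -1.5) and for Slc7a8 (4.40, median 5.47), and male C26 saline replicate 4 for Slc6a4 (-0.94, median 0.05) and for Slc7a7 (0.46, median 1.38). High libraries were female paclitaxel replicate 2 for Slc6a4 (0.47, median -0.71) and for Slc7a1 (2.65, median 1.87), male cisplatin replicate 6 for Slc7a1 (2.56, median 1.98), female cisplatin replicate 6 for Slc7a8 (4.95, median 4.17) and female C26 saline replicate 7 for Slc38a10 (6.33, median 5.74). The last of these has a GC slope above 0.1.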

How the results depend on the processing

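No result of a named member that passed in the main fit or in the alternative changed direction. Directions were not compared for results that passed in neither. Among 1469 results of single named members under settings that keep 1 choice different, 62 lost their call and 44 gained one, and with 1 library left out 130 lost and 23 gained one of 2769. Counts of members called moved by over 1.5 times as follows, and the cause was not tested except that fewer samples enter the fits of compared groups alone and without libraries of high GC slope. With the compared groups alone, 5-fluorouracil against C26 saline in females gave 1, cisplatin against C26 saline 4 in females and 4 in males, cisplatin against PBS in females 1, and male against female PBS 6. With quality weights the counts were, in females, 5 with 5-fluorouracil, 1 with paclitaxel and 8 with cisplatin against C26 saline, and 2, 7 and 3 against PBS; in males 3 with paclitaxel against C26 saline, 6 with 5-fluorouracil and 2 with cisplatin against PBS; 5 for the sex difference in the paclitaxel effect; and 9 for male against female PBS. With the GC slope as a covariate they were 1 for 5-fluorouracil against C26 saline in females, 1 for paclitaxel against C26 saline, 5 for paclitaxel against PBS and 2 for cisplatin against PBS in males. Without libraries of high GC slope they were 4 for cisplatin against C26 saline in females, 0 for paclitaxel against C26 saline and 0 each for 5-fluorouracil and paclitaxel against PBS in males, and 1 for male against female PBS.

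With each library left out the counts ran from 3 to 7 (females) and 12 to 16 (males) for C26 saline against PBS; 0 to 2 for cisplatin in females and 7 to 12, 3 to 8 and 8 to 13 for 5-fluorouracil, paclitaxel and cisplatin in males against C26 saline; 0 to 1 and 3 to 5 for 5-fluorouracil and paclitaxel in females and 1 to 4, 6 to 12 and 1 to 2 for the 3 drugs in males against PBS; and 2 to 3 for male against female PBS. The female tumour count was 3 without PBS replicate 1, 3, 5, 6 or 7 or C26 saline replicate 2, 3 or 6. Cisplatin against C26 saline in females gave 2 without C26 saline replicate 4 and 0 without C26 saline replicate 6 or cisplatin replicate 3, 5 or 6. Paclitaxel against C26 saline in males gave 3 without paclitaxel replicate 1 or 5. Against PBS, 5-fluorouracil gave 0 in females without PBS replicate 5 or 7 or 5-fluorouracil replicate 1 or 3, and 1 in males without PBS replicate 1 or 3 or 5-fluorouracil replicate 4 or 5, and cisplatin gave 2 in males without cisplatin replicate 1 or 2.

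Same-numbered libraries of a sex deviated together with a median correlation of 0.209 in females (66 pairs, -0.591 to 0.80) and 0.079 in males (72 pairs, -0.774 to 0.838), and differently numbered ones with 0.019 and -0.018. Not every same-numbered pair correlated positively, and 9 of 35 female and 13 of 38 male libraries were most like their own number. The count that chance would give was not computed, so these figures do not settle whether the numbers mark pairs. The main fit took no pairs, and a replicate block was run as an alternative. The block ended 1 call of a named member, Slc7a6 for paclitaxel against PBS in males (adjusted p = 0.0503). With a replicate block 16 members passed for the tumour and 13 for cisplatin against C26 saline in males, and no count within a sex moved by over 1.5 times. For male against female PBS, where 7 same-numbered pairs across the sexes had a median correlation of 0.028 (-0.408 to 0.308), a replicate block over both sexes gave 4 members. Low reads limit Slc6a12, Slc6a7, Slc6a13 and Slc6a2, with 18, 13, 14 and 6 libraries under 3 estimated reads.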
